A study of Rattus norvegicus with 87 samples.

Results

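Lateral habenula (LHb) dissections that were rich in the transcript of Ttr, which encodes transthyretin, were compared with dissections that were poor in it. Rats were ranked within each rat batch by the level of Ttr (ENSRNOG00000016275), and the highest rats of each batch (Ttr-rich) were set against as many of the lowest (Ttr-poor), with each side the number of rats divided by 3 and rounded down. The comparison held 26 Ttr-rich and 26 Ttr-poor rats of the 81 with expression values, and the 28 rats between them are called intermediate. Ttr itself chose the rats, so its values are given as a description and it was left out of every count of genes.

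RNA-Seq of polyadenylated RNA had been carried out on the LHb, a small nucleus of the epithalamus, of outbred Heterogeneous Stock (HS) rats, which descend from inbred founders. Both sides of the nucleus had been cut by hand from frozen sections and pooled for each rat. All rats, of both sexes, were naive to drugs and behavioural tests, and the labels gave no age. Ranked rats came from batches 2, 3, 4 and 6, with 5, 7, 9 and 5 rats on each side, and batch 5 held 1 rat, which was not ranked. Values are log2(normalized count + 1), where a normalized count is an estimated read count scaled to a common upper quartile, and a difference is the Ttr-rich mean minus the Ttr-poor mean on that scale.

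The choroid plexus is a secretory epithelium that makes cerebrospinal fluid, and part of it lies in the roof of the ventricle beside the habenula. Transthyretin, which carries thyroid hormone and the retinol-binding protein, is among the most abundant products of this epithelium and is little expressed by neurons. The epithelium is also known for water channels and for ion, sulphate and bicarbonate transporters that move fluid from blood to ventricle.

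Ttr was detected in every rat, and its level spanned 6.63 to 16.85 over all 81. In batch 2 the Ttr-poor values were 6.63, 8.28, 9.20, 9.56 and 11.37, and the Ttr-rich values were 12.95, 13.10, 13.25, 13.82 and 14.20. In batch 6 the Ttr-poor values were 6.82, 10.24, 11.13, 11.44 and 11.45, and the Ttr-rich values were 14.56, 15.55, 16.02, 16.19 and 16.38. The medians of the sides were farthest apart in these batches. In batch 3 the Ttr-poor rats ran from 9.64 through a median of 11.81 to 12.80, and the Ttr-rich rats from 14.50 through 15.14 to 16.47. In batch 4 the Ttr-poor rats ran from 12.24 through 13.93 to 14.63, and the Ttr-rich rats from 15.44 through 15.70 to 16.85. A Ttr-poor dissection of batch 4 could therefore hold more Ttr than a Ttr-rich dissection of batch 2, and the words rich and poor hold only within a batch.

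**Figure D1:**
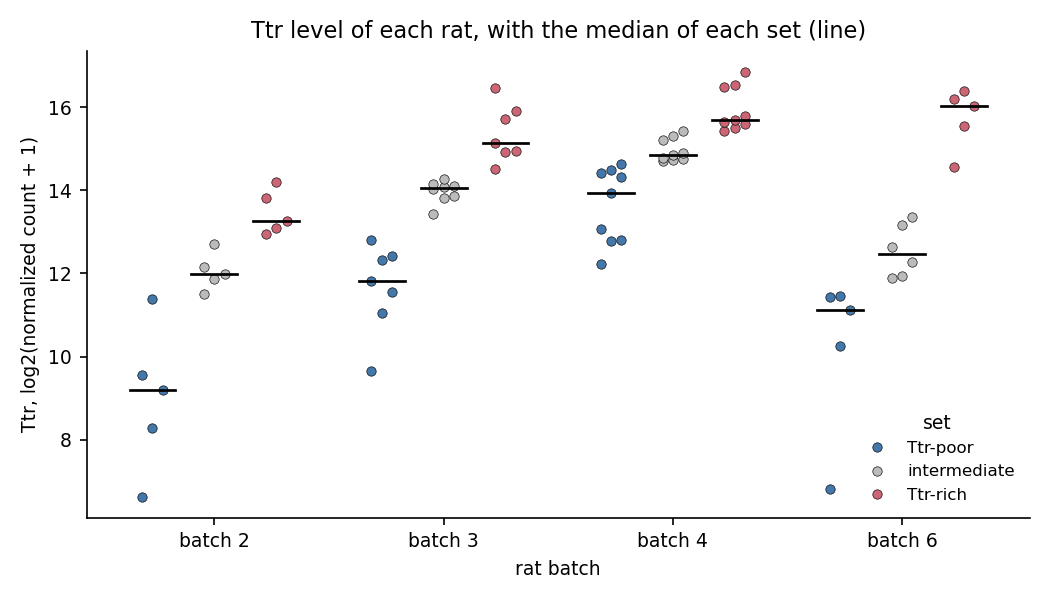
Ttr level of each of the 80 ranked rats, as log2(normalized count + 1), by rat batch, with Ttr-poor rats in blue, intermediate rats in grey, Ttr-rich rats in red and the median of each set as a line. The levels run from 6.63 to 16.85, and the Ttr-poor rats of batch 4 (12.24 to 14.63) reach above the lowest Ttr-rich rats of batch 2 (12.95).

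The rats next to the boundaries lay close together in some batches. At the upper boundary, batches 2, 3, 4 and 6 had 12.95, 14.50, 15.44 and 14.56 in their lowest Ttr-rich rat, beside 12.70, 14.26, 15.43 and 13.36 in their highest intermediate rat. At the lower boundary they had 11.37, 12.80, 14.63 and 11.45 in their highest Ttr-poor rat, beside 11.50, 13.43, 14.70 and 11.90 in their lowest intermediate rat. In batch 4 the groups were thus cut from a nearly continuous range. Ttr made up a median of 0.291% of all normalized counts in Ttr-rich rats (0.046% to 0.632%) and of 0.0186% in Ttr-poor rats (0.00055% to 0.151%).

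The sides were alike in sex, with 13 males and 13 females among Ttr-rich rats and 14 and 12 among Ttr-poor rats (two-sided Fisher's exact test, p = 1.0), although in batch 2 all 5 Ttr-poor rats were male. The number of genes listed at 0, a rough sign of library depth and RNA quality, was 712.7 ± 394 in Ttr-rich and 584 ± 240 in Ttr-poor rats (SD, n = 26 each), and the difference within batches was not larger than the spread (two-sided permutation test within batch, p = 0.128, adjusted p = 0.384 over 3 properties). It was uneven between batches. Batches 3 and 4 had medians of 858 and 793 in Ttr-rich and 604 and 580 in Ttr-poor rats. Batches 2 and 6 had 457 and 442 in Ttr-rich and 542 and 521 in Ttr-poor rats. Rats with over 1000 genes at 0 numbered 5 among Ttr-rich and 1 among Ttr-poor rats, all in batches 3 and 4. The table's columns stand in 3 alphabetical runs of rat identifiers, and in batch 3 the sides fell unequally into them, with 1, 4 and 2 Ttr-rich and 4, 3 and 0 Ttr-poor rats in runs 1, 2 and 3. Scaled totals lay between 16.2 and 20.2 M normalized counts over all rats (M, 1000000), and the scaling has removed the raw depth.

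Of 59 genes listed as choroid plexus epithelial genes, 13 could be matched to a gene in the table by symbol, and 12 of these were higher in Ttr-rich dissections (limma, Benjamini-Hochberg adjusted p under 0.05), none was lower and Rdh5 did not pass. Across the 17511 genes tested, 9.82% were higher and 6.64% lower by the same rule, and across the 3281 of them with a symbol 9.42% and 7.28%. The median difference of the 13 members was 1.17, beside -0.01 for all genes tested. All 13 were higher on average in Ttr-rich rats in each of the 4 batches, as were 7.14% of all genes tested. Summed over the 13 members, normalized counts ran from 6055 through a median of 15528 to 32104 in Ttr-rich rats and from 4472 through 5925 to 13936 in Ttr-poor rats, and no member was at 0 in every rat. Enpp2, the most abundant member, contributed the largest part of these sums. In bulk tissue, more choroid plexus cells and more RNA from each such cell cannot be told apart.

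**Figure D2:**
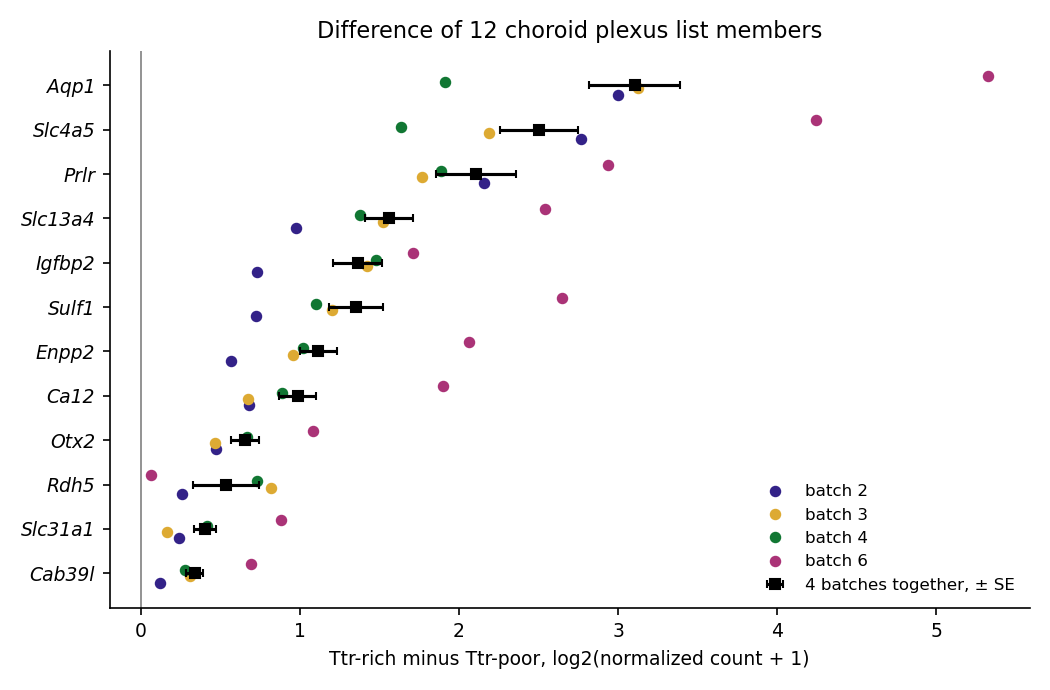
Difference between Ttr-rich and Ttr-poor dissections, on the log2(normalized count + 1) scale, for 12 of the choroid plexus list members, with the 4 batches together as black squares (error bars, SE) and each batch as a coloured point. Every point lies to the right of 0, Aqp1 is at the top with 3.10 ± 0.289, and batch 6 gives the farthest point for 11 of these 12 genes.

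The largest differences within the list were those of Aqp1 and Slc4a5, genes for the movement of water and ions. Aqp1 (ENSRNOG00000011648) encodes the aquaporin of the ventricular face of the epithelium. Its values in batch 2 were 3.17, 4.00, 4.09, 4.25 and 4.86 in Ttr-poor rats and 6.48, 6.93, 7.01, 7.26 and 7.68 in Ttr-rich rats. In batch 6 they were 2.58, 2.58, 4.75, 5.13 and 5.43 in Ttr-poor rats and 7.95, 9.29, 9.75, 9.97 and 10.14 in Ttr-rich rats. The sides did not overlap in those batches or in batch 3, where Ttr-poor rats ran from 3.00 through 5.70 to 6.38 and Ttr-rich rats from 7.67 through 8.23 to 9.47. In batch 4 they overlapped at the edge, with 5.32 to 8.67 in Ttr-poor and 8.67 to 10.21 in Ttr-rich rats. The difference was 3.10 ± 0.289 (SE, limma adjusted p = 1.4e-11), which is 8.59-fold, and Aqp1 passed the test within each of the 4 batches.

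Slc4a5 (ENSRNOG00000010378), a sodium bicarbonate cotransporter, ran from 1.58 through a median of 6.38 to 8.76 in Ttr-poor rats and from 6.07 through 8.88 to 10.74 in Ttr-rich rats. The sides did not overlap in 3 of the 4 batches, and the difference was 2.50 ± 0.247 (SE, limma adjusted p = 5.3e-11), or 5.67-fold. How many of all genes tested were separate in 3 batches, like Aqp1 and Slc4a5, was not counted. Slc13a4, which transports sulphate, was higher by 1.56 (2.95-fold). Ca12, a membrane carbonic anhydrase, was higher by 0.98, and Slc31a1, the high-affinity copper importer, by 0.40. Across all 63 solute carriers with a symbol, a group chosen after the values were seen, 4 were higher and 6 lower. Of all genes tested, 9.82% were higher and 6.64% lower, so these counts do not set the group apart. The 4 higher ones were Slc4a5, Slc13a4, Slc31a1 and the peroxisomal carrier Slc25a17 (0.11). 

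Genes for secreted and binding proteins were also higher. Enpp2 (ENSRNOG00000004089), which encodes autotaxin, was the most abundant member, although levels of different genes are not per length here. It ran from 11.49 through 11.99 to 13.25 in Ttr-poor rats and from 11.85 through 13.43 to 14.58 in Ttr-rich rats. Its Ttr-poor values in batch 2 were 11.49, 11.56, 11.64, 11.77 and 11.79 and its Ttr-rich values 11.85, 12.17, 12.20, 12.39 and 12.45. Within each of the 4 batches every Ttr-rich rat was above every Ttr-poor rat, which held for 12 of the 17511 genes (0.0685%). The difference was 1.11 ± 0.116 (SE, limma adjusted p = 2.6e-10). Of those 12 genes only Enpp2 and Scgb1c1, a secretoglobin that was low in all rats (means of 5.93 and 3.66 on the log2 scale) and is named after its values were seen, had a symbol. No gene was lower in every Ttr-rich rat than in every Ttr-poor rat of all 4 batches.

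Igfbp2, a binding protein for insulin-like growth factors, was higher by 1.36 and the extracellular sulphatase gene Sulf1 by 1.35. Prlr, the prolactin receptor, ran from 1.00 through 3.75 to 5.98 in Ttr-poor and from 3.46 through 6.0 to 8.15 in Ttr-rich rats, a difference of 2.11 ± 0.25 (SE, limma adjusted p = 1.1e-08). The sides of Prlr were separate in batch 6 alone. The homeodomain factor gene Otx2 was higher by 0.66, but its row was the same as that of 1 other gene, so these counts cannot be assigned to it with certainty. Cab39l, an adaptor of the kinase LKB1, showed the smallest difference that passed, 0.34. Rdh5, a retinol dehydrogenase gene, differed by 0.53 ± 0.208 (SE, limma adjusted p = 0.0667).

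**Figure D3:**
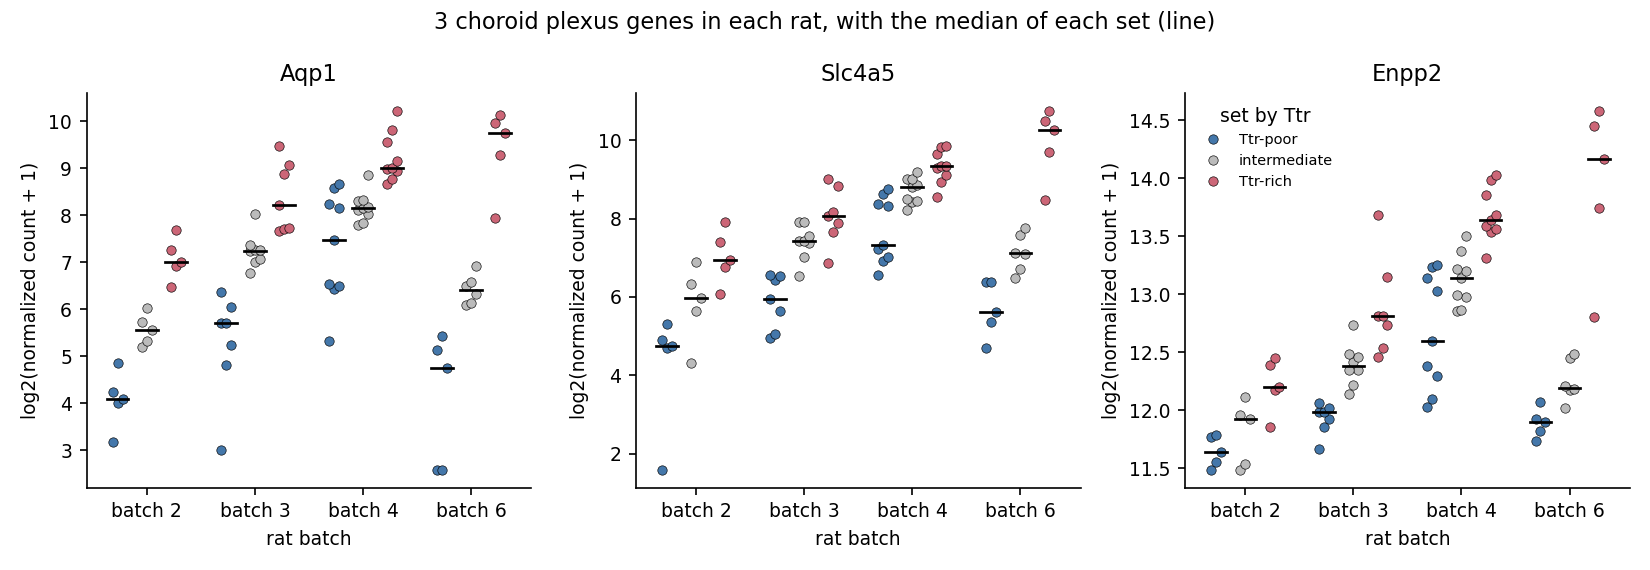
Level of Aqp1, Slc4a5 and Enpp2 in each of the 80 ranked rats, as log2(normalized count + 1), by rat batch, with Ttr-poor rats in blue, intermediate rats in grey, Ttr-rich rats in red and the median of each set as a line. The medians of intermediate rats lie between those of the 2 sides for each gene and batch, and the sides of Enpp2 are separate in all 4 batches.

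The size of the difference was not the same in all batches. Over the 13 members it had medians of 0.68, 1.20, 1.10 and 1.90 in batches 2, 3, 4 and 6. Within these batches 1, 9, 8 and 12 members passed, all higher, where 0.0742%, 12.5%, 0.451% and 5.14% of all genes tested were higher and 0%, 10.2%, 0.0171% and 3.87% were lower. For Aqp1 the differences were 3.00, 3.13, 1.91 and 5.32. A test of the difference between batches (limma, F-test of side by batch) passed for 7 of the 13 members and for 12.7% of all genes tested. These were Aqp1, Slc4a5, Slc13a4, Sulf1, Enpp2, Ca12 and Slc31a1, each largest in batch 6. Median Ttr in batches 2, 3, 4 and 6 was 13.25, 15.14, 15.70 and 16.02 in Ttr-rich rats. In Ttr-poor rats it was 9.20, 11.81, 13.93 and 11.13. The gap in Ttr that defined the sides thus also differed between batches, and its part in the differences between batches was not tested.

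Intermediate rats entered no comparison of the sides. In these 28 rats the slope of each gene on Ttr, the gene that ranked them, was fitted within batch, which is another measure than the difference between sides. Ttr also decided which rats were intermediate, so the slopes are a description and no independent check of the list. The slope was positive for 11 of the 13 members, against 50.6% of all genes tested. The slope had an unadjusted p under 0.05 for 4 of them, Aqp1, Slc4a5, Cab39l and Sulf1, against 3.08% of all genes tested. None of the 13 passed after adjustment (limma, adjusted p = 0.99992 for Aqp1), where 2 genes of all those tested did. The slope was 0.50 per unit of log2 Ttr for Aqp1 and 0.74 for Slc4a5. The range of Ttr among intermediate rats of a batch was narrow, from 11.50 to 12.70 in batch 2 and from 14.70 to 15.43 in batch 4.

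The region before the start of the genes with the largest differences is shown as a description, and shared regulation of these genes was not tested. Aqp1, Slc4a5 and the retinoid transporter gene Abca4 were the only genes with a symbol among the 15 largest positive differences at a mean log2 value of at least 5. The RefSeq sequences (build GRCr8, which is not the Rnor_6.0 build of the deposited table) run from 250 bases before to 50 bases after the start, 5′ to 3′, at chr4:85812534-85812833 for Aqp1, chr4:117283044-117283343 for Slc4a5 and chr2:212849235-212849534 for Abca4, all on the plus strand. Capitals mark TAATCC, the core bound by OTX factors, or TATAAA, on either strand (GGATTA and TTTATA on the other).
Aqp1: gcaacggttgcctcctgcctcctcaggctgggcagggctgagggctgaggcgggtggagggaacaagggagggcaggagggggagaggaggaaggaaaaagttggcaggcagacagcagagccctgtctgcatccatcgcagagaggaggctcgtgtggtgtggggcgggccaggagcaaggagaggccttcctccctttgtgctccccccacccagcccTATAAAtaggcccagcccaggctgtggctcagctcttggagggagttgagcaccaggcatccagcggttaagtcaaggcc
Slc4a5: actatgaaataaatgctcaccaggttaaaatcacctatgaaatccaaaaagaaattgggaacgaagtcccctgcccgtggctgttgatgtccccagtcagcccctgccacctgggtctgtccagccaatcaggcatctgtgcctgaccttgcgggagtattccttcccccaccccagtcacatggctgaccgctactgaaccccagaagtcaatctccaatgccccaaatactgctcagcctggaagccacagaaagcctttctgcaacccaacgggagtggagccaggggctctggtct
Abca4: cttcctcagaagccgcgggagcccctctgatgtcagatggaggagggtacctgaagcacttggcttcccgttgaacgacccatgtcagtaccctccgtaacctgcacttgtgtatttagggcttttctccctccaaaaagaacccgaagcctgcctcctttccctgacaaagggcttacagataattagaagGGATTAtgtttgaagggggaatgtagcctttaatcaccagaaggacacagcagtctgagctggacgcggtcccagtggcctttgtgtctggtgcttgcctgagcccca

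Aqp1 held TATAAA, as did 14.3% of the 27457 promoters in the table, and Abca4 held TAATCC on the other strand, as did 7.11% of promoters. Of the 13 choroid plexus members, 8 had an entry, of which 0 held TAATCC and 2, Aqp1 and Cab39l, held TATAAA. A match is only a run of letters, and its absence from this window says nothing of a factor.

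Beyond the list, Abca4 ran from 0.00 through 4.55 to 7.50 in Ttr-poor rats and from 5.17 through 7.14 to 8.76 in Ttr-rich rats, a difference of 2.44 ± 0.273 (SE, limma adjusted p = 2.0e-09). The other 12 of the 15 largest positive differences at a mean level of at least 5 had no symbol in the tables used here. Among them were ENSRNOG00000054495 (3.42) and ENSRNOG00000031249 (3.34). The following genes were taken after the values were seen, from the 40 largest differences that passed in each direction among genes with a symbol and a mean level of at least 5. Among matrix and secreted proteins, Mmp2, a gelatinase, was higher by 1.28, the ADAMTS-like gene Adamtsl4 by 0.93, the matrilin gene Matn2 by 0.58 and the proteoglycan gene Dcn (decorin) by 0.50. Tjp3, a tight junction scaffold, was higher by 0.91, Cdkn1c, an imprinted inhibitor of the cell cycle, by 0.97, and Tspo, the mitochondrial translocator protein, by 0.79. Ctsc, a lysosomal peptidase, was higher by 0.64 and Lyz2, lysozyme, by 0.55.

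Markers of the tissues next to the LHb were examined by lists of their genes. Beside the counts of these and later lists, 9.82% of all genes tested were higher and 6.64% lower. Of 7 ependymal and motile cilium genes, 3 were higher and none lower, namely Pifo (0.86), Lrriq1 (0.35) and Drc1 (0.26). Their summed level ran from 319 through 554 to 843 normalized counts in Ttr-rich and from 277 through 500 to 753 in Ttr-poor rats. The median difference of the 7 genes was 0.27, -0.13, 0.21 and 0.56 in batches 2, 3, 4 and 6. With the batches together their differences ran from -0.25 to 0.86, and 4 of the 7 did not pass. Pih1d2 and Dnajb13, which are known from motile cilia and were chosen after their values were seen, were higher by 0.75 and 0.59. Of 11 cilium and flagellum components picked by symbol, also after the values were seen, 2 were higher and none lower. The differences of these 11 ran from -0.21 to 0.62. Without the rats that had over 1000 genes at 0, none of the 7 ependymal and motile cilium genes passed (limma, 3 at an unadjusted p under 0.05). In that setting 602 of all 17511 genes tested were higher.

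Of 8 leptomeningeal and fibroblast genes, 1 was higher, Dcn, and none was lower, with a summed level of 613 to 1145 normalized counts in Ttr-rich and 472 to 1228 in Ttr-poor rats. Of 2 globin genes, Hbb was higher by 1.00 ± 0.259 (SE, limma adjusted p = 0.00786), and Hbb-bs differed by 0.51 (adjusted p = 0.0843). Hbb ran from 8.25 through 10.62 to 12.92 in Ttr-poor and from 9.61 through 11.64 to 14.25 in Ttr-rich rats, and its sides overlapped in every batch. Its differences were -0.25, 1.19, 1.70 and 0.71 by batch, and it lost its call without batch 3 and without batch 4. Of 4 endothelial and mural genes none passed (limma, 1 higher and 1 lower at an unadjusted p under 0.05), and Vwf differed by -0.04 and Emcn by 0.20. The part of ependyma, meninges, vessels and blood in the differences of other genes was not tested.

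Transcripts listed for the labelled tissue were found on both sides, although Slc17a6 among them is also listed as a general neuron gene. Lateral habenula genes had a summed level of 9048 to 14520 normalized counts in Ttr-rich and 11638 to 14838 in Ttr-poor rats. Of 4 such genes, Pcdh10, a protocadherin gene, and Slc17a6, the vesicular glutamate transporter VGLUT2, were lower, with differences of -0.21 and -0.14, and none was higher. Slc17a6 averaged 12.94 in Ttr-rich and 13.07 in Ttr-poor rats, and both genes lost their calls without batch 3. None of 7 medial habenula genes passed (limma, 1 lower at an unadjusted p under 0.05), with Chat at -0.17 and Nr4a2 at -0.10. None of 6 thalamic, 5 hippocampal, 2 pineal, 3 oligodendrocyte or 2 astrocyte genes passed either (limma, 0 at an unadjusted p under 0.05 in each). Of 5 microglial genes, the complement gene C1qa was higher by 0.23, and P2ry12 differed by 0.01. C1qa lost its call without batch 3, without batch 4, with column run in the fit (limma, adjusted p = 0.0763) and with a term for genes at 0 (adjusted p = 0.0765).

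None of the 5 partner genes of transthyretin in thyroid hormone, retinol and fluid handling passed (limma, 2 higher and 1 lower at an unadjusted p under 0.05). Rbp4, the plasma carrier of retinol that binds transthyretin, differed by 0.31 (adjusted p = 0.0634), Lrp2, an endocytic receptor, by -0.22 and Dio3, which inactivates thyroid hormone, by 0.71 at a mean level of 1.53 in Ttr-rich rats. Clock, a core gene of the circadian clock, was the only one of 5 clock genes that passed, at -0.20, and it lost its call without batch 3. Fosb, the only immediate-early gene that could be matched, differed by 0.02.

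Over all 17511 genes, 2881 differed (16.5%), 1719 higher and 1162 lower in Ttr-rich dissections, and most differences were small. The median was 0.25 among higher and -0.17 among lower genes, and 123 genes (0.702%) were higher by over 1, beside 11 lower by over 1. The 123 large differences had the same sign in all 4 batches for 120 genes (97.6%), beside 14.5% of all genes tested. The 123 genes were chosen by the mean over the same batches, so the signs are only a description. Their median difference was 0.87, 1.49, 1.16 and 2.43 in batches 2, 3, 4 and 6, and 33 of them (26.8%) differed between batches (limma, F-test), beside 12.7% of all genes tested. Of the 1396 genes higher by at most 0.5, chosen in the same way, 306 (21.9%) had 1 sign in the 4 batches, beside the same 14.5%. The 1396 genes had a median difference of -0.04, 0.45, 0.28 and 0.05 in the same order of batches. The 1162 lower genes had medians of -0.01, -0.37, -0.18 and -0.05.

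**Figure D4:**
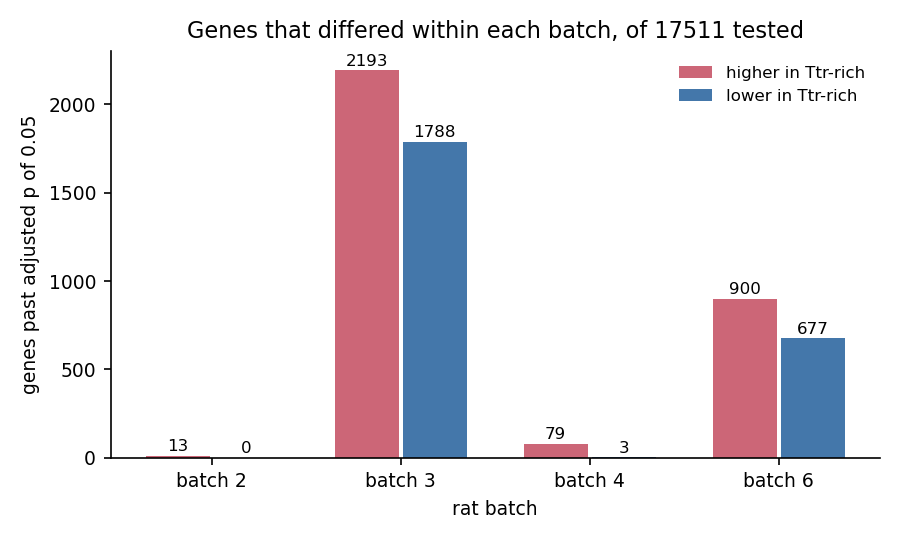
Number of genes, of 17511 tested, that were higher (red) or lower (blue) in Ttr-rich than in Ttr-poor dissections within each rat batch (limma, adjusted p under 0.05). Batch 3 holds 2193 higher and 1788 lower genes, batch 6 holds 900 and 677, batch 4 holds 79 and 3, and batch 2 holds 13 and 0.

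The following families were picked by symbol after the values were seen. Beside their counts, 9.82% of all genes tested were higher and 6.64% lower. Of 13 ribosomal protein genes, 11 were higher and none lower, among them Rpl11 (0.40), Rps16 (0.34) and Rpl28 (0.32). Of 7 subunits of NADH dehydrogenase, the first complex of the respiratory chain, 5 were higher and none lower, such as Ndufs5 (0.35) and Ndufb8 (0.28). Of 18 voltage-gated and potassium channel genes, 5 were lower, among them the sodium channel genes Scn1a (-0.28) and Scn2a (-0.22), the calcium channel gene Cacna1b (-0.28) and Kcnj3 (-0.26), and 1, Kcnv1, was higher (0.54). The 40 largest negative differences, taken as above, also held Csmd1 (-0.36), Pclo (-0.32), Nrxn3 (-0.32), Ank2 (-0.27), Shank1 (-0.26) and Adarb2 (-0.46), named after their values were seen. In the list of 5 general neuron genes, 1 was higher, Stmn3 (0.20), and 1 lower, Slc17a6 (-0.14), with a median difference of -0.018. With column run in the fit, Rpl11, Rpl28, Scn1a, Csmd1 and Ank2 kept their calls, and the other genes named here from the families and from the 40 largest lost theirs (limma, adjusted p from 0.0545 for Kcnj3 to 0.176 for Ndufs5). Stmn3, Slc17a6, Slc25a17, Lrriq1, Drc1 and Clock lost theirs too (limma, adjusted p from 0.0621 for Drc1 to 0.176 for Clock).

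These families did not behave alike in all batches. In batches 2, 3, 4 and 6 ribosomal protein genes had a median difference of -0.07, 0.63, 0.33 and -0.04, and NADH dehydrogenase subunits -0.15, 0.64, 0.38 and -0.05. The channel genes had 0.06, -0.30, -0.14 and -0.03. The median number of genes at 0 was higher in Ttr-rich rats in batches 3 and 4 and lower in batches 2 and 6. Its part in these family differences was not tested. Without batch 3, none of the 13 ribosomal protein genes passed (limma, 2 at an unadjusted p under 0.05), and none passed without batch 4 or without the rats with over 1000 genes at 0 (11 at an unadjusted p under 0.05 in each). With the column run in the fit, 5 of the 13 passed. With a term for genes at 0 in the fit, 9 of the 13 ribosomal protein genes and 4 of the 7 NADH dehydrogenase subunits passed. Over all 17511 genes the number higher was 1719 in all ranked rats, 335 without batch 3 and 376 without batch 4. It was 602 without the rats with over 1000 genes at 0, 782 with column run and 1001 with the term for genes at 0. The median difference of the ribosomal protein genes was 0.30 in all ranked rats and 0.25 with that term. It was 0.17 without batch 3, 0.23 without batch 4 and 0.25 without the rats with over 1000 genes at 0. For the choroid plexus list the same settings gave 12 of 13, as in the fit of all ranked rats, and 13 with the term for genes at 0. The part of library quality and of column run in the small differences was not tested.

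**Figure D5:**
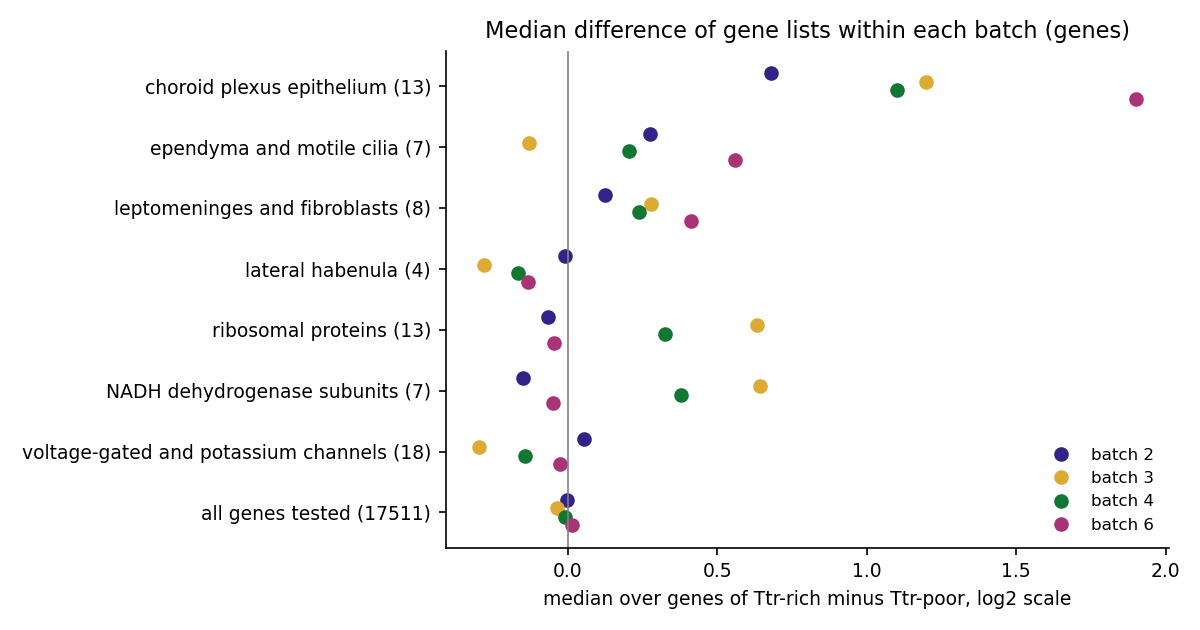
Median over the genes of each list (number of genes in brackets) of the Ttr-rich minus Ttr-poor difference on the log2 scale, with 1 coloured point for each rat batch. The choroid plexus list lies between 0.68 and 1.90 in all batches, and ribosomal protein genes lie at 0.63 and 0.33 in batches 3 and 4 and at -0.07 and -0.04 in batches 2 and 6.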

How the data were processed

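Per the study's methods and the submitters' processing notes, the authors used cutadapt to trim reads, RSEM to estimate gene counts (Ensembl transcriptome, Rnor_6.0) and DESeq2 for an upper quartile adjustment, and dropped thinly read libraries and genes. Tool versions are not given in the sources used here. The table deposited by the authors holds log2 values, as log2(adjusted estimated count + 1), for 17512 genes in 81 rats. All columns matched a listed sample. The other 6 of 87 listed samples had been removed by the authors and were not analysed here. Estimated counts divide reads among similar transcripts, and 145 genes share a row with another gene.

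Rats were grouped by the batch in the labels and ranked by Ttr within it. Differences were tested two-sided with limma 3.58.1 (lmFit, then eBayes with an intensity trend) in R 4.3.3, with batch as a covariate and Benjamini-Hochberg adjustment over 17511 genes at a threshold of 0.05. The same fit was run within each batch, with side by batch terms (F-test), and as a slope on Ttr in intermediate rats. P-values measure the spread between rats, each of which gave 1 library.

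The files pair no identifiers with symbols, so symbols came from supplementary tables of the study that list genes with a local regulatory variant, which named 3281 of the 17511 genes. The genes named are the choroid plexus list members, the 4 of each other list with the smallest p, and the 15 largest differences in each direction at an adjusted p under 0.05 and a mean log2 value of at least 5, apart from 2 genes not reported here, which stay in the counts. The members and lists were chosen with earlier results of these data known. Sex was compared by Fisher's exact test and library properties by 100000 permutations within batch. Ranking and permutations were done in Python 3.11.15 (pandas 2.3.3, numpy 2.4.6, scipy 1.17.1). Alternatives to the scaling, transformation, filter, covariates, cut and rats are given in the closing section.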

Additional observations from a re-analysis of the deposited data

Results flagged for a closer look

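Across 60 sets of rats of 1 batch and side (5 measures), 7 held a rat whose distance to its nearest neighbour was large for the range of its set, where chance gives about 3. Rat 13 of batch 3 (Ttr-poor) had 1661 genes listed at 0, against 381 to 644 in the other 6, and rat 5 of batch 6 (intermediate) had 1110, against 384 to 585. Rat 1 of batch 2 (Ttr-poor) had 446, below the 540 to 568 of the other 4. The scaled total of rat 21 of batch 3 (intermediate) was 20.2 M normalized counts, against 16.9 to 18.3 M. Rat 9 of batch 3 (Ttr-poor) had the lowest Hbb, 8.25 on the log2 scale, against 10.67 to 12.39. Dcn was 8.67 in rat 2 of batch 4 (Ttr-poor), against 7.15 to 7.87, and 7.38 in rat 12 of batch 6 (Ttr-rich), against 8.22 to 8.54. The mean level of the choroid plexus list held no such rat.

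The Ttr-rich minus Ttr-poor difference itself differed between batches for 2231 genes (limma, F-test of side by batch). Among choroid plexus genes the adjusted p was 0.0102 for Enpp2 (0.57 to 2.06 on the log2 scale over the batches), 0.0107 for Aqp1 (1.91 to 5.32), 0.0147 for Ca12 (0.67 to 1.90), 0.0178 for Sulf1 (0.72 to 2.65), 0.0195 for Slc4a5 (1.64 to 4.25), 0.0245 for Slc31a1 (0.16 to 0.88) and 0.0472 for Slc13a4 (0.98 to 2.54), all by limma.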

How the results depend on the processing

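The choroid plexus count was 12 or 13 of 13 under 18 of 21 alternatives, 11 of 11 among genes averaging 5 or more on the log2 scale, 11 of 12 with 1 gene of each identical set, and 10 of 13 in males. Ranking by these genes themselves is no check of it. Of 2881 genes called (1719 higher, 1162 lower), 357 (335 and 22) were called without batch 3, 529 (376 and 153) without batch 4, 4209 without batch 2, of which 1869 were lower, 3744 without batch 6, and 107 (106 and 1) were called in males and 1768 (1121 and 647) in females. The count was 1485 (1001 and 484) with the number of genes at 0 added, 932 (634 and 298) with no batch covariate, 1757 (1087 and 670) after a rank-based inverse normal transformation, 991 (643 and 348) with Ttr as a continuous term, 613 (473 and 140) when rats were ranked by the other choroid plexus genes, and 1893 (697 lower) with sides of the batch size divided by 4. Chosen after seeing the data, column run as a covariate gave 1105 (782 and 323), and leaving out rats with over 1000 genes at 0 gave 857, of which 602 were higher. The 123 genes higher by over 1 became 51 under that minimum mean, 64 with a pseudocount of 8, 63 in males and 185 in females. Genes with a difference between batches, 2231 in all, numbered 975 with column run, 1116 with the number of genes at 0, 12 without batch 3 and 0 after the inverse normal transformation (limma, 4588 at an unadjusted p under 0.05). The cause of these changes was not tested. No paired analysis was possible because replicate numbers here are accession order and pair no rats. Leaving out single rats was not run, as sides held 26 each. The scaling removed the raw depth, so no limit of detection was set.

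Named genes that took the other sign had not passed the test, and their values ran from -0.33 for Tph1 to 0.14 for Olig2. With the number of genes at 0 added, the value was -0.0036 for Aldh1l1, 0.0043 for Olig2 and -0.034 for Tph1. After a rank-based inverse normal transformation, the value was -0.031 for Aldh1l1 and 0.057 for Ntsr2. After quantile normalization, the value was -0.0097 for Aldh1l1 and -0.024 for Fosb. After rescaling by the median of ratios, the value was -0.0048 for Aldh1l1. With sides of the batch size divided by 4, the value was -0.078 for Aldh1l1, -0.29 for Fosb, -0.33 for Tph1, -0.057 for Vtn and 0.015 for Wfs1. With Ttr as a continuous term, the value was -0.022 for Aldh1l1, -0.041 for Fosb, 0.010 for Itgam, -0.0026 for Tph1, -0.011 for Vtn and 0.0053 for Vwf. Without batch 2, the value was -0.021 for Aldh1l1, -0.052 for C1ql2, -0.091 for Fosb and 0.0079 for Wfs1. Without batch 4, the value was -0.072 for Aldh1l1, 0.050 for Itgam, -0.0056 for Mal, -0.19 for Tph1 and -0.029 for Vtn. In females, the value was -0.23 for Aldh1l1, -0.064 for Fosb and -0.28 for Tph1. Without batch 3, the value was -0.030 for C1ql2, -0.025 for Stmn2, 0.029 for Vwf and 0.015 for Wfs1. In males, the value was -0.23 for C1ql2, 0.12 for Ntsr2, 0.14 for Olig2, 0.030 for Opalin and 0.068 for Wfs1. With column run added, the value was -0.015 for C1ql2, 0.013 for Ntsr2, 0.0045 for Olig2, 0.024 for Vwf and 0.0016 for Wfs1. Without rats with over 1000 genes at 0, the value was -0.0015 for C1ql2, 0.0046 for Itgam, 0.0047 for Ntsr2, 0.015 for Olig2, 0.014 for Vwf and 0.011 for Wfs1. Ranked by the other choroid plexus genes, the value was -0.033 for Fosb, -0.021 for Tph1 and 0.0012 for Vwf. With sex added, the value was -0.017 for Fosb and 0.0020 for Ntsr2. Without batch 6, the value was -0.030 for Fosb, 0.12 for Ntsr2, 0.062 for Olig2, 0.0030 for Slc32a1 and -0.13 for Tph1.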

Other observations

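The 1 rat of batch 5, which was in no comparison, had a Ttr level of 13.21 and an Aqp1 level of 5.98 on the log2 scale. Its Slc4a5 level was 7.92, its Prlr level 6.55 and its Igfbp2 level 7.83.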
